A study of Rattus norvegicus with 18 samples.

Results

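Genes of the cell division cycle were examined in rat ovarian follicles on either side of the time of ovulation, in untreated animals and in animals given indomethacin or RU486. The set was a list of 45 genes: 9 regulators of G1 and of entry into S phase, 12 genes of DNA replication, 21 genes of G2 and mitosis and 3 inhibitors of cyclin-dependent kinases. The rule took the probe set whose single gene symbol was a listed name. Where a gene had several, it took the one with the highest mean signal over all arrays, and no difference between groups entered the rule. Of the 45 genes, 42 matched a probe set, among 14217 genes with a symbol of their own and 31099 probe sets on the array. Cdc6 and Tpx2 matched none, and Rrm2 shared its probe sets with a related gene and was left out. Cdk6 matched but did not pass the filter on low values, being above background on 6 of 18 arrays, so 41 genes were tested. Each of these stood above background on at least 17 of the 18 arrays.

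The animals were Crl:CD(SD) rats, a Sprague-Dawley stock, and no transgene was involved. Follicles were cut by laser from 8 µm frozen sections, 15 per phase, and their total RNA was hybridized to Affymetrix arrays, 1 array per sample and 3 samples in each of 6 groups. Control PeF came from untreated rats at 22:00 of proestrus, before ovulation, and control PoF, ruptured follicles, from untreated rats at 10:00 of estrus. IM PeF and IM UF came at the same times from rats given a single oral dose of 4 mg/kg indomethacin, an inhibitor of cyclooxygenases, at 16:00 of proestrus. RU PeF and RU UF came from rats given a single oral dose of 100 mg/kg RU486 (mifepristone), which blocks the progesterone receptor and the glucocorticoid receptor, at 10:00 of proestrus. UF are follicles that had not ruptured, although another label field of these samples calls them post-ovulatory. The treated follicles at 10:00 were thus unruptured and the control follicles ruptured, so drug and rupture cannot be told apart there. The labels state 3 animals per group and time but tie no sample to an animal, so p-values measure the spread between samples. In such bulk samples fewer dividing cells and less RNA per cell cannot be told apart.

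Cells enter S phase when D and E cyclins, with Cdk4, Cdk6 and Cdk2, release E2F factors, which drive replication genes. Genes of G2 and mitosis are transcribed later in the cycle, and many of them carry a CHR element (cell cycle genes homology region) or CCAAT boxes close to their start. Granulosa cells divide while the follicle grows, and after the surge of luteinizing hormone they leave the cycle and become luteal cells, a step in which D2 cyclin falls and the inhibitors p21 and p27 rise.

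Promoters are shown for 7 genes of G2 and mitosis on which the results turn, printed from 250 bases before the start up to it, 5′ to 3′ on the gene's strand, in lower case. Capitals mark the CHR element TTTGAA, the CCAAT box CCAAT and the E2F core (TTCCCGC or TTGGCGC or TTCGCGC or TTGCCGC), searched on both strands. A CCAAT box on the opposite strand reads ATTGG, and its last letters may overlap an E2F core that begins TTGG. Ccnb1 had the smallest p of its class in both drug time courses; Cdc20, Hmmr, Prc1 and Top2a fell in both and were picked for their CHR match; Bub1b fell in both and holds none of the motifs; Cdk1 was the gene with a called difference between time courses.
Ccnb1: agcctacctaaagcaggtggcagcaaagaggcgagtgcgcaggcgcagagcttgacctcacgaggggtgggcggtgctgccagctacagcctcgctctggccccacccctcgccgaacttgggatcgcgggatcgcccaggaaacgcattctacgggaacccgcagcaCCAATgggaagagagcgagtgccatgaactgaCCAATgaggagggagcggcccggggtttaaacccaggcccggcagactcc
Cdc20: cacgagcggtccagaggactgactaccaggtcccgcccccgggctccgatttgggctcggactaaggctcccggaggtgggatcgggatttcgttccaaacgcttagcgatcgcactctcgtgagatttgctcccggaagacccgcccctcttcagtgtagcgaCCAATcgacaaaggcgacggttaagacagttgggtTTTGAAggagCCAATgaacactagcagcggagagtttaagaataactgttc
Hmmr: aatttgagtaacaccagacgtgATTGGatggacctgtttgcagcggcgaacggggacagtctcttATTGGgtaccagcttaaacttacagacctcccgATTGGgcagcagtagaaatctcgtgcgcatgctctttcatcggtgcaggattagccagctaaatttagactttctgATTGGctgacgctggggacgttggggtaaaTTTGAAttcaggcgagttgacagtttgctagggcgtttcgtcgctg
Prc1: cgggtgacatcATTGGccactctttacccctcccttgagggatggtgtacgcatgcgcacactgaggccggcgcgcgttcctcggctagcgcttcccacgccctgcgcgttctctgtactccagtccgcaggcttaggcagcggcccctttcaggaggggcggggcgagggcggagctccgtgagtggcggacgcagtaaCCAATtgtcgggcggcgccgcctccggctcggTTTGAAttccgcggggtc
Top2a: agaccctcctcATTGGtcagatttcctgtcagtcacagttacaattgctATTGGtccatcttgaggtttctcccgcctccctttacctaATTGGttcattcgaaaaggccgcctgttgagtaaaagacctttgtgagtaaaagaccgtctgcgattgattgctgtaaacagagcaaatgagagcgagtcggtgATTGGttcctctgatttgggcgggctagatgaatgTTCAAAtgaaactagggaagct
Bub1b: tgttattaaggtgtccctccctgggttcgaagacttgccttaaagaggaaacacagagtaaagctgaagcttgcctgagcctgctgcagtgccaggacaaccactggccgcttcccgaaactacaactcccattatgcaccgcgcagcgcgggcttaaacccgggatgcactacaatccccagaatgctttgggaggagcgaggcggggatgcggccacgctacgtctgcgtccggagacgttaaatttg
Cdk1: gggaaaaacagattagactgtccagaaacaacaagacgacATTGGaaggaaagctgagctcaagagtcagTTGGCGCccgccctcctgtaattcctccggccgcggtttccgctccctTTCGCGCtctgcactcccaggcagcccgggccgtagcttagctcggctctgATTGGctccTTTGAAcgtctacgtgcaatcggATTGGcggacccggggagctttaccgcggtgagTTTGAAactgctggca
These sequences are from RefSeq (GRCr8) and lie at chr2:33655226-33655475 (Ccnb1), chr5:137255800-137256049 (Cdc20), chr10:25665216-25665465 (Hmmr) and chr10:84473094-84473343 (Top2a) on the minus strand, and at chr1:143659231-143659480 (Prc1), chr3:126016817-126017066 (Bub1b) and chr20:19265043-19265292 (Cdk1) on the plus strand. A promoter was listed for 33 of the 45 genes. The CHR match stood in 8 of 17 windows of the G2 and mitosis class, or 47.1%, against 16.2% of all 33469 promoters of the table. It stood in 4 of 8 windows of genes that fell in both drug arms and in 4 of the other 9. The 4 that fell in both and have it are Cdc20, Hmmr, Prc1 and Top2a. Among the other 4 with a match, Cdk1 fell under RU486, Mki67 under indomethacin, and Birc5 and Ccnb2 were called in no time course. Whether the match bears on the falls was not tested. The CCAAT box stood in 14 of the 17, or 82.4%, against 34.0% of all promoters. The E2F core stood in 6 of 9 windows of the replication class, or 66.7%, against 7.59% of all, and in 3 of the 17 windows of the mitotic class. Ccnb1 has 2 CCAAT boxes and no TTTGAA in its window, while Cdk1 has 2 CHR matches, 3 CCAAT boxes and 2 E2F cores. No other form of the CHR element was searched, so a window without a match may still hold one. These are matches of letters, and no binding was measured.

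Signals are given as log2 of the normalized signal plus 2.8. Array medians before normalization ran from 4.4 to 27.44, and control PeF 3, IM UF 2 and IM PeF 2 were the dimmest. After normalization control PeF 3 still gave the lowest value of the 18 arrays for 13 of 41 genes and control PeF 1 the highest for 14. The mean of the mitotic class had an SD of 0.56 over the 3 control PeF arrays and of 0.06 to 0.31 in the other groups. RU UF 2 gave the lowest value for 12 genes. The 3′ to 5′ signal ratio of Gapdh was 3.72 ± 0.66 in control PeF and 2.22 ± 0.13 in control PoF (SD, n = 3), with means of 2.78 to 3.07 in the other groups; its part in the results was not tested.

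**Figure D1:**
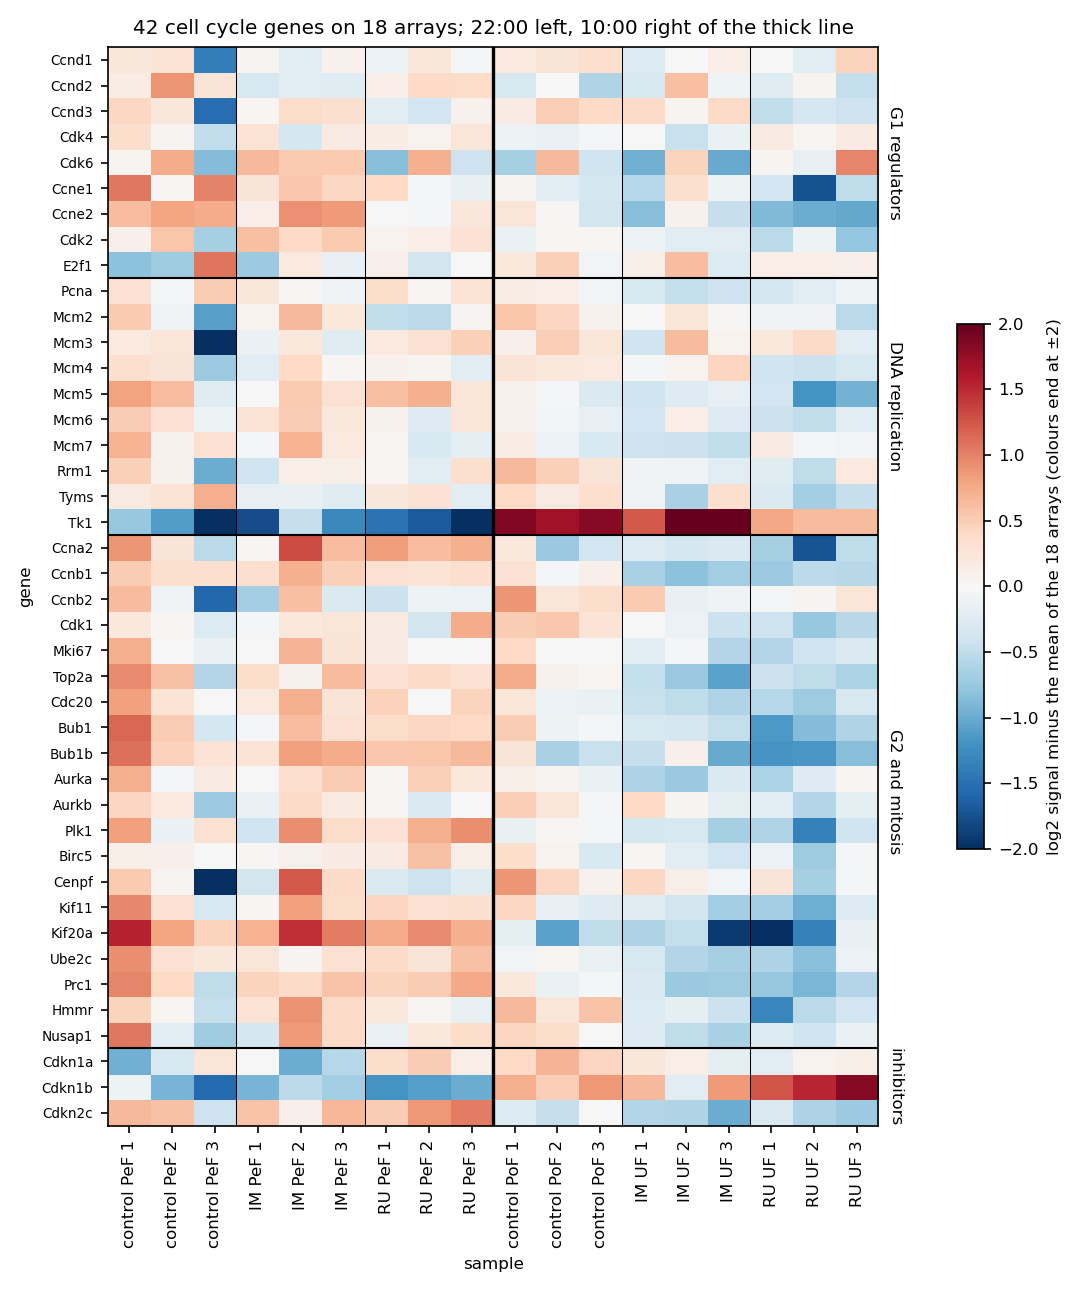
Each row is 1 of the 42 matched genes and each column 1 of the 18 arrays, with the arrays of 22:00 left and those of 10:00 right of the thick line. Colours give the log2 signal minus the gene's mean over the 18 arrays: Tk1 and Cdkn1b are low on the left and high on the right, and most rows of the G2 and mitosis class are low in the 6 arrays of IM UF and RU UF.

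The first question was how the set behaves from 22:00 to 10:00 in each arm. In untreated follicles 3 genes rose and 5 fell, 8 of 41, where 39.6% of all 18155 probe sets tested were called, 21.1% rising and 18.5% falling (limma, Benjamini-Hochberg adjusted p under 0.05). Under indomethacin 2 rose and 16 fell, where 33.3% of all probe sets were called, 16.3% rising and 17.1% falling. Under RU486 2 rose and 18 fell, where 38.8% of all probe sets were called, 19.0% rising and 19.9% falling. The median difference of the 41 genes was -0.07 in controls, -0.52 under indomethacin and -0.52 under RU486, while that of all probe sets was 0.05, -0.03 and -0.02. Both groups of a time course were free of overlap, with the later one lower, for 6 genes in controls (23.6% of all probe sets), 21 under indomethacin (23.3%) and 26 under RU486 (29.7%). The 16 and 18 falling genes of 41 exceed the background share in the drug arms, and the 5 in controls lie below it. The control count depended on single arrays, from 3 without control PoF 2 and 4 without control PoF 3 to 12 without control PeF 1 (9 higher and 3 lower) or control PeF 3 (4 higher and 8 lower).

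Of the G1 regulators none rose in any time course. Ccnd2, cyclin D2, which granulosa cells need to proliferate, read 7.9, 8.63 and 8.01 in control PeF and 7.43, 7.75 and 7.15 in control PoF. The groups did not overlap, and Ccnd2 fell by 0.73 ± 0.23 on the log2 scale (SE; limma adjusted p = 0.0178). That call was lost without control PeF 2 (adjusted p = 0.0993) or control PoF 3 (0.0909), and with the signals as deposited the difference was 0.74. In IM PeF Ccnd2 already read 7.44, 7.52 and 7.51, below all 3 control PeF arrays, without passing the test (-0.69 ± 0.23, adjusted p = 0.358). In IM UF the values were 7.45, 8.35 and 7.67, a difference of 0.33 ± 0.23 (adjusted p = 0.288) from IM PeF. RU PeF gave 7.88, 8.15 and 8.11 and RU UF 7.5, 7.81 and 7.27 (-0.52 ± 0.23, adjusted p = 0.0829). The later group lay below the earlier one without overlap in controls and under RU486, and under indomethacin the groups overlapped, with IM UF 2 the highest of their 6 arrays.

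The other D cyclins, Ccnd1 and Ccnd3, which bind the same kinases, passed no test. Ccnd1 read 6.68, 6.72 and 5.07 in control PeF, where control PeF 3 stood apart, 6.65, 6.71 and 6.8 in control PoF, 6.51, 6.23 and 6.54 in IM PeF, 6.18, 6.46 and 6.58 in IM UF, 6.34, 6.67 and 6.44 in RU PeF, with RU UF at 6.46, 6.22 and 6.91. Ccnd3 read 8, 7.81 and 6.06 in control PeF, again with control PeF 3 apart, 7.75, 8.08 and 7.98 in control PoF, 7.62, 7.94 and 7.9 in IM PeF, 7.97, 7.64 and 7.97 in IM UF, 7.38, 7.2 and 7.67 in RU PeF, with RU UF at 7.09, 7.24 and 7.17. RU UF was below control PoF on every array for Ccnd3, with a difference of -0.77 ± 0.33 (adjusted p = 0.19). Cdk4, the kinase partner of the D cyclins, gave differences between time points of -0.06, -0.22 and -0.03 in the control, indomethacin and RU486 arms, none of which passed.

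Ccne2, cyclin E2, which with Cdk2 drives entry into S phase, fell in all 3 arms. It read 6.47, 6.65 and 6.6 in control PeF and 6.09, 5.88 and 5.48 in control PoF, a fall of 0.75 ± 0.26 (adjusted p = 0.0292). IM PeF gave 6, 6.78 and 6.71 and IM UF 5, 5.95 and 5.4 (-1.04 ± 0.26, adjusted p = 0.00484). RU PeF gave 5.86, 5.81 and 6.08 and RU UF 4.97, 4.86 and 4.82 (-1.03 ± 0.26, adjusted p = 0.00421). The arrays of the 2 times did not overlap in any arm. The fall rests on this probe set: the other one for Ccne2 gave 0.97, 0.25 and 0.47 in the 3 arms, and with the mean of both the control difference was 0.11. The control call was lost without control PeF 2, control PeF 3, control PoF 2 or control PoF 3, with adjusted p between 0.0507 and 0.135.

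Ccne1, cyclin E1, fell by 0.94 ± 0.36 under RU486 (adjusted p = 0.0472), from 5.61, 5.17 and 5.07 to 4.83, 3.48 and 4.71. RU UF 2 stood lowest, and without it the difference was -0.51 (adjusted p = 0.272). The call was also lost without RU PeF 1 (0.16), RU PeF 2 (0.0773) or RU PeF 3 (0.0611). Cdk2 fell under indomethacin by 0.69 ± 0.26 (adjusted p = 0.0478), from 6.5, 6.29 and 6.42 to 5.79, 5.69 and 5.68. The groups were apart, but the call was lost when any of the 6 arrays was left out, with adjusted p between 0.0567 and 0.13. The second Cdk2 probe set gave -0.58 in that arm and was not called (adjusted p = 0.104). E2f1, a factor released at the G1/S step, passed no test.

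Among the 10 replication genes tested, Tk1 stood apart from the rest. Tk1 encodes cytosolic thymidine kinase, which supplies thymidine monophosphate and normally rises in S phase. It read 6.32, 5.96 and 4.48 in control PeF and 8.93, 8.75 and 8.9 in control PoF, a 9.65-fold rise (3.27 ± 0.39, adjusted p = 5.22e-06). IM PeF gave 5.3, 6.61 and 5.79 and IM UF 8.31, 9.21 and 9.46, an 8.54-fold rise (3.09 ± 0.39, adjusted p = 1.06e-05). RU PeF gave 5.61, 5.41 and 5.09 and RU UF 7.85, 7.72 and 7.72, a 5.26-fold rise (2.40 ± 0.39, adjusted p = 0.000108). Every later array exceeded every earlier one in each arm, and all 3 Tk1 probe sets rose in each. At 10:00 RU UF lay below all arrays of control PoF and IM UF, but neither difference passed the test (-1.09 ± 0.39, adjusted p = 0.0996, and -1.23 ± 0.39, adjusted p = 0.0697).

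Of the 10 replication genes Tk1 alone rose in any arm. None fell in controls, where 18.5% of all probe sets fell. In each drug arm 2 of the 10 fell, near the 17.1% and 19.9% of all probe sets that fell there. Pcna, the sliding clamp of DNA polymerase, fell by 0.45 ± 0.13 under indomethacin (adjusted p = 0.0145), from 10.3, 10.1 and 10.01 to 9.77, 9.61 and 9.67. Under RU486 Pcna fell by 0.43 ± 0.13 (adjusted p = 0.0161), from 10.44, 10.1 and 10.35 to 9.75, 9.85 and 10. These falls were small, and the calls were lost without IM PeF 1 or IM UF 2 in the first arm (adjusted p of 0.0756 and 0.0506) and without RU PeF 1, RU PeF 3 or RU UF 1 in the second (0.0766, 0.0516 and 0.0688). Mcm7, a subunit of the MCM helicase that unwinds DNA, fell under indomethacin from 8.15, 8.87 and 8.36 to 7.75, 7.73 and 7.68 (-0.74 ± 0.19, adjusted p = 0.00528). Its difference under RU486 was 0.18 ± 0.19 (adjusted p = 0.49). Mcm5, another subunit, fell under RU486 from 6.66, 6.77 and 6.31 to 5.67, 4.87 and 5.12 (-1.36 ± 0.27, adjusted p = 0.000704) and gave -0.54 ± 0.27 under indomethacin (adjusted p = 0.137). Subunits of 1 helicase were therefore not called together: Mcm2, Mcm3, Mcm4 and Mcm6 passed no test in any time course. The same holds for Rrm1, of ribonucleotide reductase, and Tyms, thymidylate synthase.

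Genes of G2 and mitosis gave most of the calls. Of the 20 tested, 11 fell under indomethacin and 13 under RU486, where 17.1% and 19.9% of all probe sets fell, and none rose, with medians of -0.79 and -0.85. Of the 20 genes 19 and 18 had a negative difference in the 2 arms. In controls 3 of 20 fell, Kif20a, Bub1b and Ube2c, a share below the 18.5% of all probe sets that fell there. None rose, and the median was -0.27, which turned to 0.03 without control PeF 1, 0.10 with arrays scaled to a common median and 1.20 with signals as deposited. With those scalings the medians of the drug arms stayed negative, at -0.73 and -0.95 with common medians and -0.80 and -0.99 as deposited, but calls fell to 4 and 11 of 20 with common medians and to 0 in both arms as deposited. The 2 drug arms then gave 4564 and 5805 calls among all 18155 probe sets with common medians, and 609 and 1038 as deposited. Among all genes of the set, 12 fell in both drug arms, 12 of the 16 under indomethacin and 12 of the 18 under RU486; these 2 arms share no sample. Of all probe sets 2112 fell in both arms, 68.2% of those that fell under indomethacin and 58.6% of those that fell under RU486, so the overlap within the set is near that of the whole array. Of them 9 belong to the mitotic class: Bub1b, Ccnb1, Cdc20, Hmmr, Kif11, Kif20a, Prc1, Top2a and Ube2c. Kif20a, Bub1b, Ube2c and the G1 gene Ccne2 fell in all 3 arms. The share of all probe sets that fell in all 3 was not counted, so this number has no background beside it.

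**Figure D2:**
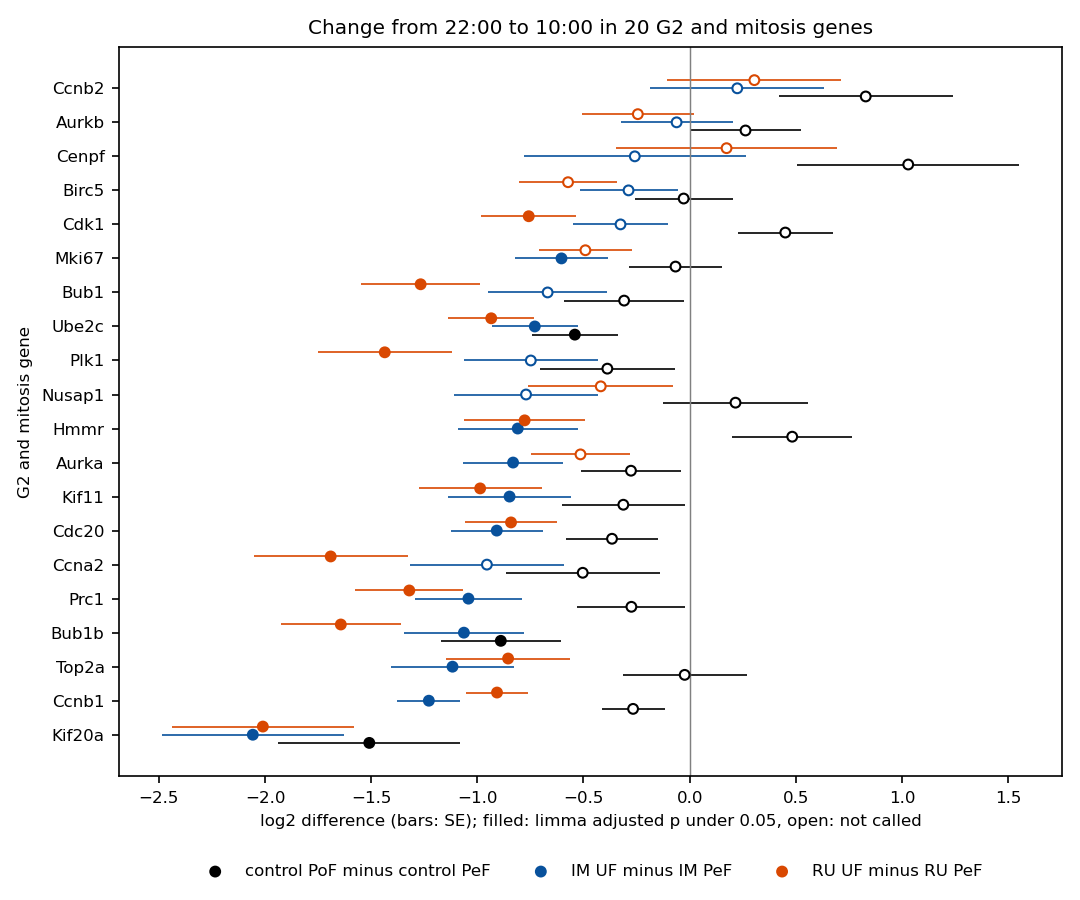
Points give the log2 difference of the 10:00 from the 22:00 group for 20 G2 and mitosis genes, bars its SE, with controls in black, indomethacin in blue and RU486 in orange; filled points passed the limma test at adjusted p under 0.05. The filled blue and orange points, 11 and 13 of 20, all lie left of 0, and 3 of the black points are filled; the control median turns positive with other scalings.

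Ccnb1, cyclin B1, the partner of Cdk1 at entry into mitosis, fell under indomethacin from 7.54, 7.92 and 7.68 to 6.55, 6.38 and 6.51, a 2.34-fold fall (-1.23 ± 0.15, adjusted p = 6.38e-06). Under RU486 it fell from 7.51, 7.47 and 7.54 to 6.47, 6.68 and 6.65 (-0.91 ± 0.15, adjusted p = 0.000107). Control PeF gave 7.71, 7.52 and 7.54 and control PoF 7.51, 7.16 and 7.3 (-0.27 ± 0.15, adjusted p = 0.163). All 6 UF arrays lay below every other array, and a second Ccnb1 probe set also fell in both drug arms, by 1.28 and 1.87. In controls that second probe set gave -0.77 (adjusted p = 0.0522), a larger difference than the first and short of a call.

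Kif20a encodes a kinesin of the central spindle needed for cytokinesis and had the widest spread of group means in its class. Its values were 9.44, 8.68 and 8.35 in control PeF and 7.72, 6.83 and 7.39 in control PoF (-1.51 ± 0.43, adjusted p = 0.00948). IM PeF gave 8.58, 9.35 and 8.93 and IM UF 7.28, 7.42 and 5.99, a 4.16-fold fall (-2.06 ± 0.43, adjusted p = 0.0012). RU PeF gave 8.64, 8.85 and 8.61 and RU UF 5.77, 6.55 and 7.75, a 4.03-fold fall (-2.01 ± 0.43, adjusted p = 0.00117). All 9 earlier arrays lay above all 9 later ones, and the later arrays spread widely. The control call was lost without control PoF 2 (adjusted p = 0.0509), and with signals as deposited the control difference was -0.02 (adjusted p = 0.98).

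Bub1b, a kinase-like protein of the spindle checkpoint, fell by 0.89 ± 0.28 in controls (adjusted p = 0.0182), from 7.89, 7.26 and 7.08 to 7.05, 6.16 and 6.35. Under RU486 it fell from 7.33, 7.35 and 7.44 to 5.62, 5.64 and 5.94, 3.12-fold (-1.64 ± 0.28, adjusted p = 0.000172). IM PeF gave 7.06, 7.61 and 7.54 and IM UF 6.33, 6.89 and 5.79 (-1.06 ± 0.28, adjusted p = 0.00737). The control call was lost without control PeF 1 (adjusted p = 0.0846), control PoF 2 (0.0923) or control PoF 3 (0.0681), and as deposited the control difference was 0.56. Ube2c, the ubiquitin-conjugating enzyme of the anaphase-promoting complex, fell by 0.54 ± 0.20 in controls (adjusted p = 0.0413), from 8.42, 7.78 and 7.71 to 7.42, 7.52 and 7.35. That call was lost without control PeF 1 (adjusted p = 0.205), control PoF 1 (0.0869), control PoF 2 (0.0635) or control PoF 3 (0.114), and as deposited the difference was 0.93. Under the drugs Ube2c fell by 0.73 and 0.93.

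Prc1, a microtubule bundler of the central spindle, fell under indomethacin from 8.58, 8.52 and 8.72 to 7.85, 7.41 and 7.44 (-1.04 ± 0.25, adjusted p = 0.00408). Under RU486 it went from 8.58, 8.64 and 8.9 to 7.39, 7.23 and 7.55, a 2.5-fold fall (-1.32 ± 0.25, adjusted p = 0.000484). Neither pair overlapped, while control PeF, at 9.12, 8.54 and 7.63, overlapped control PoF, at 8.35, 8 and 8.11. Cdc20, an activator of the anaphase-promoting complex, fell by 0.91 ± 0.22 under indomethacin (adjusted p = 0.00347), from 7.28, 7.8 and 7.35 to 6.64, 6.58 and 6.48. Another Cdc20 probe set fell there as well (-1.39, adjusted p = 0.00495). Further ones were not called, at -0.57 (adjusted p = 0.234) and -0.76 (adjusted p = 0.437). Top2a, the topoisomerase that untangles sister chromatids, fell by 1.12 and 0.86 in the 2 drug arms, Kif11, a spindle kinesin, by 0.85 and 0.99, and Hmmr, a spindle protein, by 0.81 and 0.78. The second Top2a probe set gave -0.93 under indomethacin, not called (adjusted p = 0.0939), and -1.49 under RU486 (adjusted p = 0.00803).

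Calls in a single drug arm went to Aurka and Mki67 under indomethacin (-0.83 and -0.60) and to Bub1, Ccna2, Cdk1 and Plk1 under RU486 (-1.27, -1.69, -0.76 and -1.44). In the other drug arm the 6 genes had differences of the same sign: -0.51 and -0.49 under RU486, and -0.67, -0.96, -0.33 and -0.75 under indomethacin. Whether the drug arms differ in these changes was not tested. Mki67 encodes the proliferation marker Ki-67, Aurka and Plk1 are mitotic kinases, and Ccna2 is cyclin A2. The remaining 5 genes, Aurkb, Birc5, Ccnb2, Cenpf and Nusap1, were called in no time course. Aurkb and Birc5 are partners in the chromosomal passenger complex. Ccnb2, cyclin B2, had differences of 0.83, 0.22 and 0.30 in controls, under indomethacin and under RU486, unlike Ccnb1. Cenpf, a kinetochore protein, read 6.83, 6.36 and 4.02 in control PeF, where control PeF 3 stood far below, and 7.19, 6.72 and 6.39 in control PoF.

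**Figure D3:**
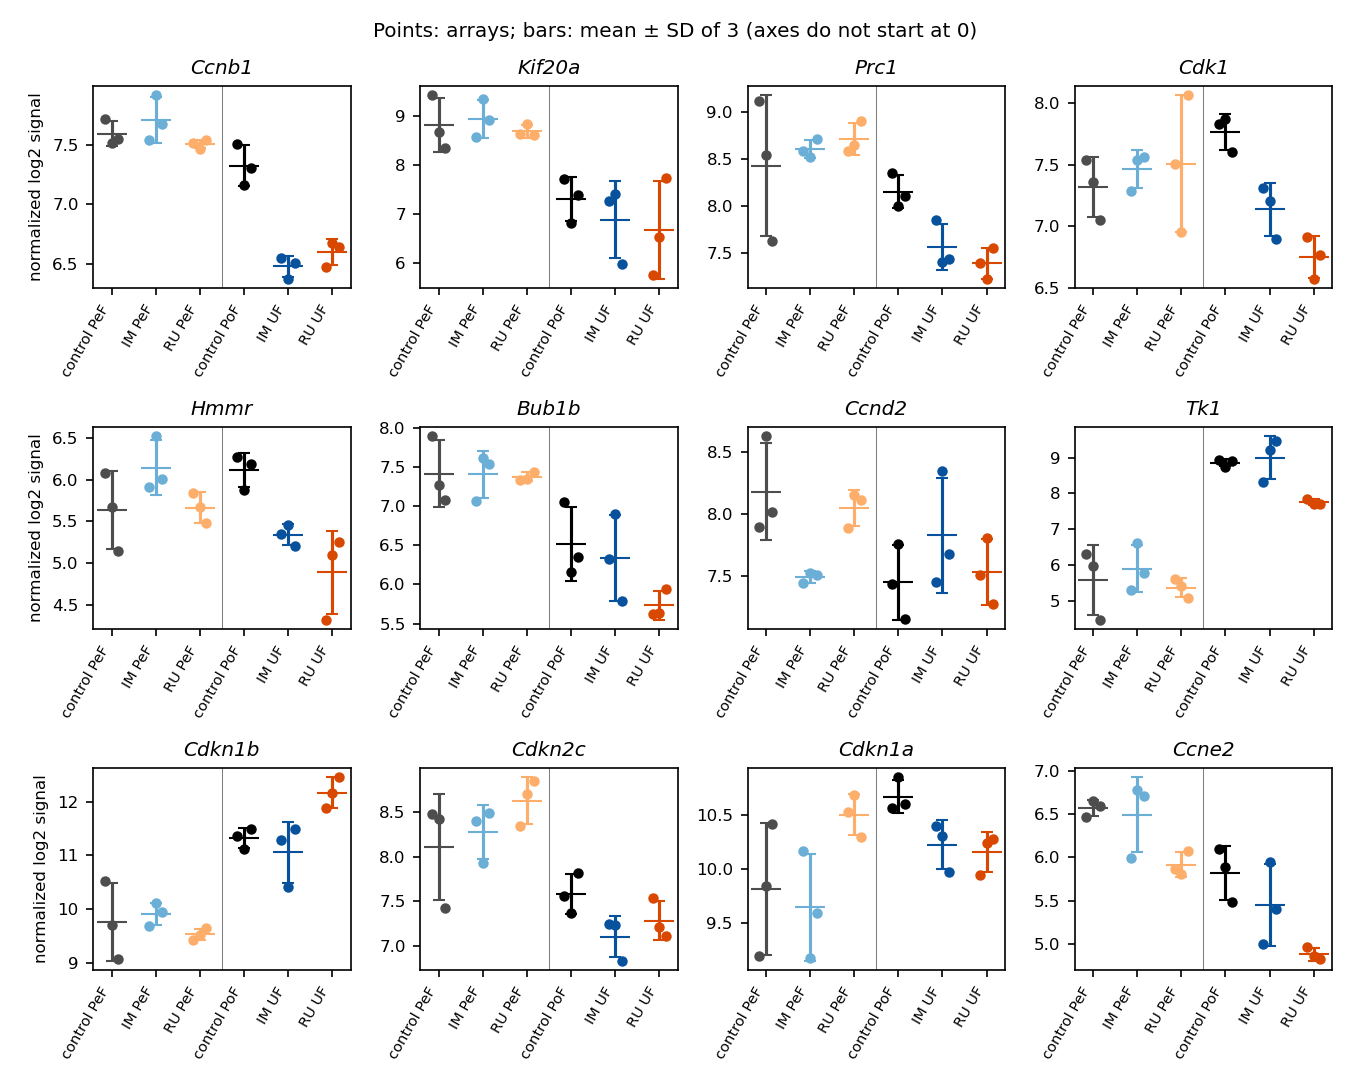
Each panel shows 1 gene, with a point for each array, a line at the mean of 3 and bars of 1 SD, on an axis of normalized log2 signal that does not start at 0. In Ccnb1 all IM UF and RU UF arrays lie below the control PoF arrays, in Tk1 and Cdkn1b the 10:00 groups right of the line lie high, and in Cdk1 the control PoF arrays lie above those of RU UF.

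The inhibitors did not move together. Cdkn1b, p27, which holds E cyclin and Cdk2 in check, rose in all 3 arms. It read 10.52, 9.7 and 9.08 in control PeF and 11.36, 11.12 and 11.5 in control PoF, a 2.94-fold rise (1.56 ± 0.29, adjusted p = 0.00037). IM PeF gave 9.69, 10.11 and 9.94 and IM UF 11.28, 10.41 and 11.48 (1.14 ± 0.29, adjusted p = 0.00503). RU PeF gave 9.44, 9.52 and 9.64 and RU UF 11.89, 12.15 and 12.45, a 6.20-fold rise (2.63 ± 0.29, adjusted p = 1.6e-06). No arm overlapped, and RU UF exceeded every other array. At 10:00 Cdkn1b was higher in RU UF than in IM UF by 1.11 ± 0.29 (adjusted p = 0.0251), the 1 gene of the set called between the drugs, where 6.91% of all probe sets were called and 3.47% were higher in RU UF. That call was lost without IM UF 2 (0.78, adjusted p = 0.149), RU UF 2 (0.0754) or RU UF 3 (0.114). A dimmer Cdkn1b probe set, above background on 10 arrays, gave 1.42, 0.20 and 1.66 in the 3 arms.

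Cdkn1a, p21, read 9.2, 9.84 and 10.41 in control PeF and 10.56, 10.85 and 10.6 in control PoF, and rose by 0.85 ± 0.25 (adjusted p = 0.012). The call was lost without control PeF 1 (0.54, adjusted p = 0.0675) or control PoF 2 (0.0509). IM PeF gave 10.16, 9.18 and 9.6 and IM UF 10.4, 10.3 and 9.97 (0.58 ± 0.25, adjusted p = 0.0865). RU PeF gave 10.53, 10.68 and 10.3, above control PeF 1 and control PeF 2 on every array, and RU UF 9.95, 10.24 and 10.28 (-0.35 ± 0.25, adjusted p = 0.296). The second Cdkn1a probe set gave 0.79 in controls (adjusted p = 0.167) and -0.23 under indomethacin (adjusted p = 0.732), neither called, and fell by 1.28 under RU486. The control call thus comes from 1 probe set. Cdkn2c, p18, an inhibitor of Cdk4 and Cdk6, went the other way. It fell by 1.17 ± 0.25 under indomethacin (adjusted p = 0.00142), from 8.4, 7.93 and 8.48 to 7.24, 7.23 and 6.83, and by 1.35 ± 0.25 under RU486 (adjusted p = 0.000337), from 8.34, 8.7 and 8.85 to 7.53, 7.21 and 7.1. In controls it read 8.48, 8.42 and 7.42, then 7.56, 7.36 and 7.82 (-0.53 ± 0.25, adjusted p = 0.102). With the mean of both Cdkn2c probe sets the drug differences were -0.59 and -0.79, and neither passed (adjusted p of 0.155 and 0.0529).

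At 22:00, before rupture, no gene of the set was called between treated and control follicles. With indomethacin 0 of 41 passed limma's test, where 0% of all probe sets did; 2 of the 41 and 2066 of the 18155 had an unadjusted p under 0.05. With RU486 0 of 41 passed, where 7.41% of all probe sets were called. Unadjusted, 3 of the 41 and 4324 of the 18155 had a p under 0.05. The medians of the mitotic class were 0.12 and 0.02, and without the 3 dimmest arrays they were -0.28 and -0.23, so their sign depends on those arrays. The 2 comparisons share the control samples. Between RU PeF and IM PeF 0 of 41 were called, where 5.23% of all were. Unadjusted, 4 of the 41 and 3137 of the 18155 had a p under 0.05. The smallest adjusted p was that of Cdkn1a, higher in RU PeF by 0.85 ± 0.25 (adjusted p = 0.0566).

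At 10:00 the mitotic class lay lower in unruptured than in ruptured follicles, with few calls. Under RU486 5 of 41 genes were lower than in control PoF and none higher, where 8.72% of all probe sets were called and 4.51% lower. Under indomethacin 0 of 41 passed limma's test, where 0.0330% of all did. An unadjusted p under 0.05 was found for 10 of the 41, all lower, and for 1265 of the 18155 in either direction. The mitotic class had a median of -0.63 with 20 of 20 genes negative under RU486, and of -0.45 with 19 of 20 negative under indomethacin; with arrays scaled to a common median these medians were -0.73 and -0.52. The medians of all probe sets were -0.02 and -0.01. Groups did not overlap, with UF lower, for 14 of 20 mitotic genes under RU486, where 18.8% of all probe sets did so, and for 12 of 20 under indomethacin, where 8.89% did. Both comparisons use the same 3 control PoF arrays. The 5 calls became 2 without control PoF 1 or RU UF 1, 3 without control PoF 2 or RU UF 2, and 16, 1 higher and 15 lower, without the 3 dimmest arrays. In that last setting 3101 of all 18155 probe sets were called, 1461 of them higher.

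**Figure D4:**
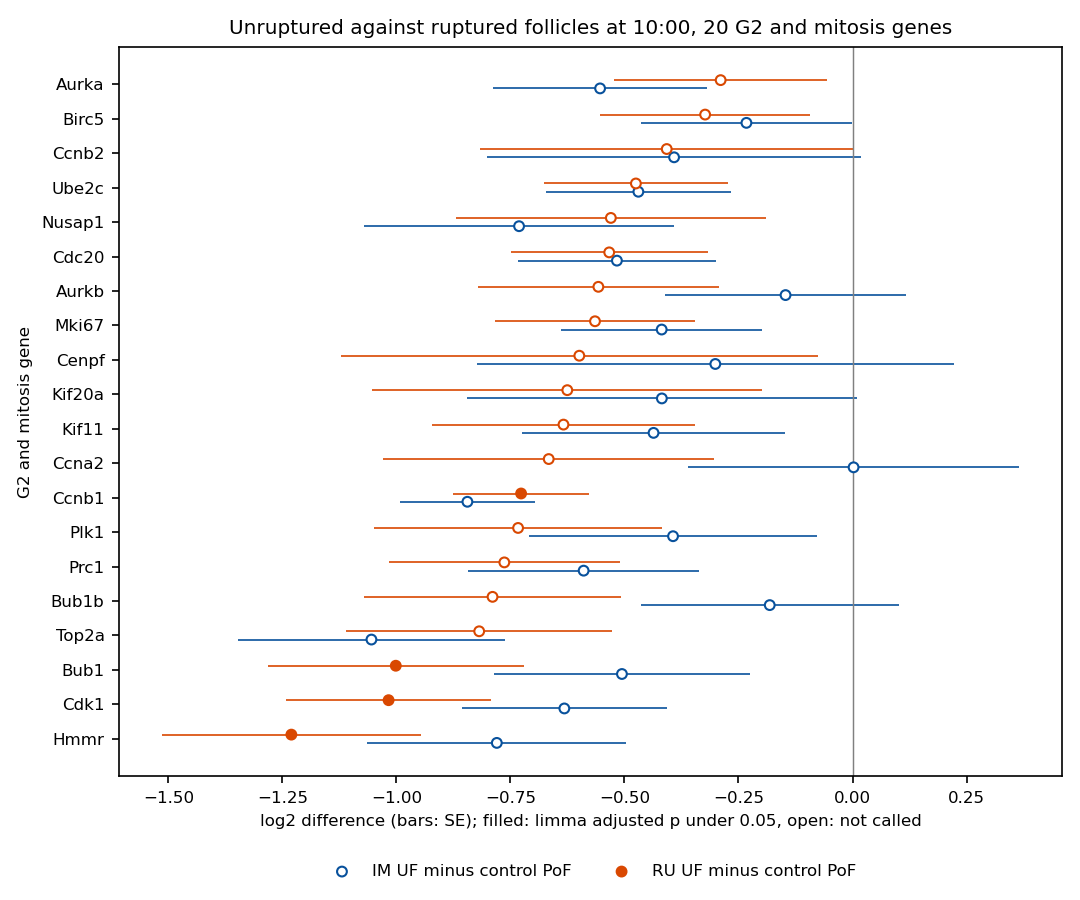
Points give the log2 difference of unruptured from ruptured control follicles at 10:00 for 20 G2 and mitosis genes, bars its SE, with indomethacin in blue and RU486 in orange; filled points passed the limma test. All 20 orange points lie left of 0 and 4 are filled (Bub1, Ccnb1, Cdk1 and Hmmr), and 19 of 20 blue points lie left of 0 with none filled.

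Cdk1, the kinase that drives mitosis, read 7.83, 7.87 and 7.6 in control PoF, 7.31, 7.21 and 6.89 in IM UF and 6.92, 6.57 and 6.77 in RU UF. RU UF was 2.02-fold lower than control PoF (-1.02 ± 0.22, adjusted p = 0.0081), and IM UF gave -0.63 ± 0.22 (adjusted p = 0.516). Both UF groups lay below all control PoF arrays. Ccnb1, its cyclin, was lower in RU UF by 0.73 ± 0.15 (adjusted p = 0.00457) and gave -0.84 ± 0.15 in IM UF (adjusted p = 0.0575). The second Ccnb1 probe set was not called there, at -0.91 in RU UF (adjusted p = 0.0758) and -0.57 in IM UF (adjusted p = 0.801). Hmmr read 6.28, 5.88 and 6.19 in control PoF, 5.35, 5.46 and 5.2 in IM UF and 4.32, 5.09 and 5.25 in RU UF. RU UF differed by -1.23 ± 0.28 (adjusted p = 0.0106), which was lost without control PoF 1 (0.053) or RU UF 1 (-0.95, adjusted p = 0.0635). A second Hmmr probe set, above background on all 18 arrays, gave -0.43 (adjusted p = 0.537), so the call rests on 1 probe set.

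Bub1, a spindle checkpoint kinase, read 7.76, 7.15 and 7.23 in control PoF, 6.93, 6.92 and 6.77 in IM UF and 6.11, 6.38 and 6.65 in RU UF. RU UF was lower by 1.00 ± 0.28 (adjusted p = 0.0331), and RU UF 3 was the single array of the 6 whose removal kept that call (adjusted p of 0.0529 to 0.162 without the others). Ccne2 was the fifth gene, lower in RU UF by 0.94 ± 0.26 (adjusted p = 0.0313), a call kept only without control PoF 3. Its other probe set gave 0.21 in this comparison (adjusted p = 0.831). Tyms came next, at -0.78 ± 0.24 (adjusted p = 0.0506). In the replication class RU UF lay below control PoF without overlap for 8 of 10 genes, where 18.8% of all probe sets did so. None of the 10 passed the test.

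Whether the time course itself differed between arms was tested as a difference of changes. For indomethacin against control 0 of 41 genes passed limma's test, where 0% of all probe sets did. Unadjusted, 6 of the 41 and 1637 of the 18155 had a p under 0.05. For RU486 against control 1 passed, Cdk1, where 4.03% of all did, 1.85% with a lower value. All 20 mitotic genes had a negative difference of changes in each, with medians of -0.55 and -0.66; both tests use the same 6 control arrays. Without control PeF 3 alone the medians were -0.35 and -0.37, with 17 and 18 of 20 negative. Cdk1 rose by 0.45 ± 0.22 in controls (adjusted p = 0.12, not called), from 7.54, 7.36 and 7.05, and fell under RU486 from 7.5, 6.96 and 8.07 (-0.76 ± 0.22, adjusted p = 0.0123) to the RU UF values above. The difference of the 2 changes was -1.21 ± 0.32 (adjusted p = 0.0399) and passed the threshold without control PeF 1 or RU PeF 2, but not without any of the other 10 arrays (adjusted p between 0.0518 and 0.0982) nor without the 3 dimmest arrays together (-1.08, adjusted p = 0.0514). The call was also lost with arrays scaled to a common median (adjusted p = 0.0508), with no filter on low values (0.0589), in a fit on the compared groups alone (0.0674) and with signals as deposited (0.236). Apart from Cdk1, then, a fall called in a drug arm and not in controls was not shown to differ from the control change.

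**Figure D5:**
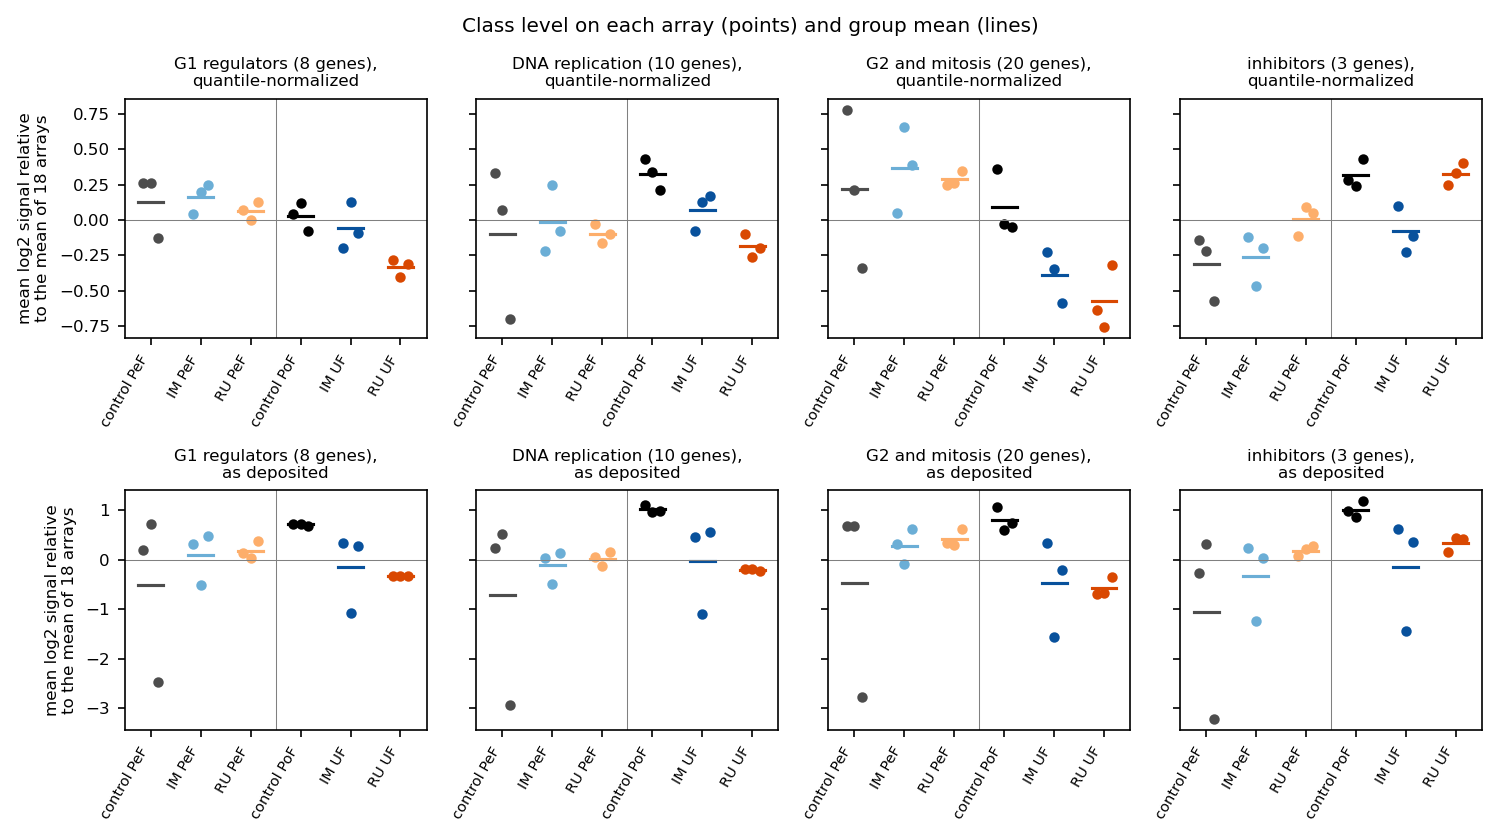
Each point is 1 array and gives the mean log2 signal of a class relative to the 18 arrays, lines are group means, the upper row uses normalized signals and the lower row signals as deposited. In the upper row the mitotic class lies between -0.76 and -0.23 in IM UF and RU UF and between -0.34 (control PeF 3) and 0.78 in the other groups; in the lower row control PeF 3 and IM UF 2 drop in every class.

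Other cell cycle genes, a list of 162 of which 132 were tested, were counted in the same way. In controls 16 rose and 23 fell, where 21.1% and 18.5% of all probe sets did, so the calls together lie below the 39.6% of all. Under indomethacin 11 rose and 42 fell, where 16.3% and 17.1% of all did, and under RU486 13 rose and 53 fell, where 19.0% and 19.9% did. Of 66 further genes of G2 and mitosis, 12 fell in controls, 28 under indomethacin and 37 under RU486, and 3, 3 and 4 rose, with medians of -0.19, -0.61 and -0.84. In controls and under indomethacin the smallest p-values among falling genes belonged to Gmnn, Cdc25b and Rpa2. Gmnn, geminin, an inhibitor of replication licensing, fell in controls (-2.24 ± 0.23, adjusted p = 9.72e-07) and under indomethacin (-2.52 ± 0.23, adjusted p = 2.85e-07), while its difference under RU486 was -0.11 ± 0.23 (adjusted p = 0.737). Cdc25b, a phosphatase that activates Cdk1, fell in controls (-2.79 ± 0.32, adjusted p = 2.93e-06) and under indomethacin (-3.40 ± 0.32, adjusted p = 3.93e-07). Rpa2, a subunit of the protein that coats single-stranded DNA, fell in all 3 arms (-1.86, -2.06 and -2.44). Among those that rose in controls were Stmn1 (1.15), Ccng1 (1.66) and the stress-response gene Gadd45a (2.31).

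At 22:00 3 of these 132 genes were higher and 2 lower in RU PeF than in control PeF, a share below the 7.41% of all probe sets called there. Cdc25b was lower in RU PeF by 1.82 ± 0.32 (adjusted p = 0.00186) and Gmnn by 1.11 ± 0.23 (adjusted p = 0.00627), while Gadd45a was higher by 1.88 ± 0.34 (adjusted p = 0.00255). At 10:00 6 were higher and 13 lower in RU UF than in control PoF, where 8.72% of all probe sets were called and 4.51% lower, among them Kif23, a partner in cytokinesis, at -1.26 ± 0.24 (adjusted p = 0.00254), and H2az1, a histone variant, at 0.76 ± 0.12 (adjusted p = 0.000457). No gene of the list was called for indomethacin at either time. The change of Gmnn differed between RU486 and control by 2.13 ± 0.32 (adjusted p = 0.00119), and that of Gadd45b by -3.16 ± 0.59 (adjusted p = 0.00555).

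Markers of cell types moved with time as well. The summed signal of 8 smooth muscle and pericyte markers rose without overlap in each arm, from 456 to 460 in control PeF to 640 to 808 in control PoF, from 324 to 387 in IM PeF to 885 to 992 in IM UF, and from 214 to 237 in RU PeF to 403 to 497 in RU UF. Of the 8 markers 5 rose and 1 fell in controls, 6 rose under indomethacin, and 5 rose and 1 fell under RU486; Cspg4 was at background in control PeF. The 9 endothelial markers matched summed to 1262 to 1293, 1029 to 1125, 955 to 1134, 890 to 940, 870 to 1037 and 620 to 930 in the earlier and later control, indomethacin and RU486 groups, in that order. Of these 9 markers 1 rose and 2 fell in controls, 1 rose and 1 fell under indomethacin, and 0 rose and 2 fell under RU486. Their mean log2 level relative to all arrays went from 0.17 to 0.29, from -0.06 to 0.04 and from -0.24 to -0.2 in these arms. The lower sums at the later time were thus not shared by the endothelial markers as a class. The 9 leukocyte markers summed to 501 to 594, 427 to 1078, 386 to 554, 634 to 832, 480 to 593 and 321 to 485 in the same order, with Itgam at background in every group and Cd3e in both control groups. The 5 oocyte markers summed to 14.3 to 91.4, 14.1 to 25.5, 23.0 to 146, 16.8 to 33.1, 69.6 to 171 and 29.6 to 44.7, with Bmp15 at background in every group, Zp1 in all but RU PeF and Zp3 in control PoF and IM UF. All 9 granulosa markers were above background in every group, with 4 higher and 4 lower at the later time in controls, 3 and 2 under indomethacin, and 4 and 4 under RU486. Of 5 theca markers Cyp17a1 alone was at background, in IM UF. The theca list includes Lhcgr and Star, and whether its markers are particular to theca cells at these times was not tested. The theca sum went without overlap from 6620 to 8400 in control PeF down to 2917 to 3756 in control PoF, and from 6116 to 8443 in IM PeF down to 2999 to 4582 in IM UF. Under RU486 it went up without overlap, from 10173 to 13083 in RU PeF to 14143 to 15107 in RU UF. Of the 5 theca markers 0 rose and 3 fell in controls and likewise under indomethacin, while 1 rose and 1 fell under RU486. Their mean log2 level relative to all arrays was 0.71 in RU PeF (SD 0.5) and 0.73 in RU UF (SD 0.14). The rise of the sum under RU486 was thus not shared by the markers as a class. The part of these shifts in the cell cycle differences was not tested.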

How the data were processed

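Total RNA of laser-dissected follicles was measured on 18 single-colour Affymetrix arrays. The deposited values are intensity values on a linear scale; the submitters' processing notes name MAS5, and no version or scaling target is given in the sources used here. Array medians differ and 7.04% to 25.1% of values lie at the floor of 1, so the arrays were quantile normalized here. Then log2(signal + 2.8) was taken, 2.8 being the 20th percentile of all values, and every fold is on that scale, which understates changes of dim genes. The 57 control probe sets were left out. Probe sets exceeding the median of the array they were read on in 3 or more of the 18 arrays were kept, 18155 of 31099. Symbols came from the platform annotation: 20826 probe sets had 1 symbol, 436 several and 9780 none.

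limma 3.58.1 in R 4.3.3 fitted all 6 groups together (12 residual degrees of freedom), with an intensity trend and Benjamini-Hochberg adjustment over all probe sets tested; "rose", "fell" and "called" mean adjusted p under 0.05, and ± is the SE unless SD is stated. Background was the highest of 27 unspiked control probe sets on each array. The number of arrays limits the precision. In simulated data for the control time course (18155 probe sets), 37% of genes changed by log2 1 and 87% of those changed by log2 2 were recovered. Only 100 genes of each size were changed there, while 39.6% of probe sets were called in the data. The adjustment depends on how many probe sets change, so these shares do not give the recovery in the data. Genes named with full values were, for each class and comparison, up to 4 called ones with the smallest adjusted p, the gene of widest spread in each class, the D cyclins and the inhibitors; other cell cycle genes were the 3 of smallest adjusted p in each direction, and any other gene named was chosen after its values were seen. The members and gene lists were chosen with earlier results of these data known. Alternatives were other scalings, pseudocounts, filters, probe set rules, array weights, a replicate block, fits on the compared groups alone and leaving out arrays.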

Additional observations from a re-analysis of the deposited data

Results flagged for a closer look

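Cdk1 was the gene of the set whose change from 22:00 to 10:00 differed between treated and untreated follicles by a test of the difference itself. The RU486 change minus the control change was -1.21 ± 0.32 on the log2 scale (SE; limma adjusted p = 0.0399), with 4.03% of all probe sets called in that comparison. The call was lost when any of 10 of the 12 arrays was left out, and kept without control PeF 1 or RU PeF 2. It was also lost in a fit on the compared groups alone (-1.21, adjusted p = 0.0674), with no filter on low values (-1.21, 0.0589), with arrays scaled to a common median (-1.66, 0.0508), without the 3 dimmest arrays (-1.08, 0.0514) and with signals as deposited (-2.79, 0.236). It was kept with both other pseudocounts, with array weights and with the mean of all probe sets, with adjusted p between 0.00947 and 0.0415.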

How the results depend on the processing

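Counts of called genes among the 41 moved most with scaling and array quality. With signals as deposited, unscaled between arrays, the control time course gave 12 genes, all higher, the indomethacin one 1, the RU486 one 2, and RU UF against control PoF, RU UF against IM UF and the RU486 difference of changes 0 each. Of all 18155 probe sets 5595 (5454 higher), 609, 1038, 151, 32 and 82 were called with these signals, in that order. There Bub1b (0.56), Ccnd2 (0.74), Ccne2 (0.64) and Ube2c (0.93) turned upward in the control time course, where the median of all probe sets was 1.28. With arrays scaled to a common median the control time course gave 4 calls, all higher, indomethacin 8, RU UF against control PoF 3, RU UF against IM UF 0 and RU PeF against control PeF 1. The counts over all 18155 probe sets were 5832 (4348 higher), 4564, 790, 557 and 888. With arrays weighted by quality the counts were 16 in the control time course, 23 for RU UF and 2 for IM UF against control PoF, 2 for IM PeF and 2 for RU PeF against control PeF, 5 for RU PeF against IM PeF, 6 for RU UF against IM UF, and 5 and 8 for the differences of changes under indomethacin and RU486. In the same order, 9911, 3693, 169, 2311, 3457, 3857, 2645, 543 and 2441 of all 18155 probe sets were called, so calls rose over the whole array. Without the 3 dimmest arrays the counts were 17 in the control time course, 16 for RU UF against control PoF, 1 for RU PeF against control PeF, 4 for RU UF against IM UF and 2 for the RU486 difference of changes. Here the whole array gave 7182, 3101, 2245, 1807 and 1664. Fits on the compared groups alone gave 3 in the control time course, 18 for RU UF against control PoF, 4 for RU UF against IM UF and 0 for the RU486 difference of changes. Over all 18155 probe sets such fits gave 5066, 3121, 1888 and 681. A pseudocount at the median gave 1 for IM UF against control PoF, 1 for RU PeF against IM PeF and 2 for RU UF against IM UF, and no filter gave 0 for the RU486 difference of changes. All probe sets gave 14, 1018 and 1360 of 18155 with that pseudocount, and 518 of 31042 with no filter. With the mean of all its probe sets Ccne2 gave 0.11 in the control time course. The cause of these shifts was not tested. Leaving out single arrays gave 3 to 12 calls in the control time course, 13 to 20 under indomethacin, 16 to 20 under RU486, 0 to 0 for IM PeF and 0 to 1 for RU PeF against control PeF, 0 to 0 for IM UF and 2 to 4 for RU UF against control PoF, 0 to 1 for RU PeF against IM PeF, 0 to 2 for RU UF against IM UF, 0 to 0 for the indomethacin and 0 to 4 for the RU486 difference of changes. Single genes were followed for 37 called results, the up to 4 of smallest adjusted p in each class and comparison. Calls with larger adjusted p were not among them, so the shares below are those of the strongest calls. Of the 37, 22 were kept whichever array was left out, and 5 of these under every other setting as well: Tk1 in all 3 time courses and Cdkn1b in controls and under RU486.

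Replicate numbers are shared between groups, but same-numbered samples did not deviate together (correlations of -0.30 to 0.12 over 45 pairs, with 0 of 18 samples closest to their own number). With the replicate number as a block, the time courses gave 8, 17 and 20 calls, RU UF against control PoF 5, RU UF against IM UF 1, and the RU486 difference of changes 0, where Cdk1 had an adjusted p of 0.0591. Of all 18155 probe sets 6966, 5848, 6809, 1383, 1112 and 596 were called with the block, in that order.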
